A study of Mus musculus with 12 samples.

Results

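The genes described here are 6 genes of MHC class II presentation, Cd74, H2-Aa, H2-Ab1, H2-Eb1, H2-DMa and Ciita, chosen by symbol from the 55573 genes of a hippocampal RNA-seq count table. Poly-A RNA of the whole right hippocampus was sequenced in bulk, as directional libraries, from 12 C57BL/6J mice aged 4.5 months. APPSwe/Ps1dE9 (APP/PS1) mice carry a chimeric mouse/human APPSwe transgene and a human PS1 transgene lacking exon 9, both under a prion promoter, and were compared with wild-type (WT) mice. There were 4 APP/PS1 females, 4 APP/PS1 males, 2 WT females and 2 WT males, and the deposited counts summed to between 36714316 and 50643565 per library. All 6 genes had counts in all 12 libraries, but only 2 of them, Cd74 and H2-DMa, passed the expression filter, which asked for a log2 CPM (counts relative to the scaled library total) of at least 1 in at least 3 libraries. With a CPM of at least 1 in 3 libraries, which kept 15521 genes in place of 14008, 5 of 6 passed, all but Ciita. The published gene number matches the CPM form of the filter, and the tests below use the log2 form.

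MHC class II molecules are heterodimers that carry peptides from endocytosed proteins to the cell surface, where CD4+ T cells read them. Cd74, the invariant chain, occupies the peptide groove of a new heterodimer until lysosomal proteases degrade it and the H2-DM heterodimer exchanges the remnant for peptide. Ciita is the coactivator that switches class II genes on, in many cells after interferon gamma. In the brain, class II is known from dendritic cells, from macrophages of the meninges, perivascular spaces and choroid plexus, and from some activated microglia.

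The libraries divided by genotype and sex as labelled, but Thy1 and not Prnp separated the genotypes, although the transgenes are described as under a prion promoter. Thy1 lay between 2173 and 3311 normalized CPM in the 8 APP/PS1 libraries and between 726 and 747 in the 4 WT libraries. Prnp, the prion protein gene, lay between 720 and 822 CPM in all 12, and its genotypes overlapped. The labels name no Thy1 construct, and the source of the Thy1 difference was not tested. Xist was at 619 CPM or more in the 6 female libraries and at 0.215 CPM or less in the males, and Ddx3y was at 75.7 to 103 CPM in males and at most 0.0529 CPM in females. Of 9 hippocampal neuron markers, none was at 0 in most libraries, Camk2a was the most abundant per length at 1649 TPM (counts relative to exon length and library total), and 1, Spink8, fell by 0.28 on the log2 scale in APP/PS1 (edgeR quasi-likelihood test, Benjamini-Hochberg adjusted p = 0.0982).

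The choroid plexus, a secretory epithelium that lies against the hippocampus, set 3 libraries apart. Ttr, its transthyretin transcript, reached 6362 normalized CPM in APP/PS1 male 2, 3647 CPM in WT female 2 and 3530 CPM in APP/PS1 female 1. In the other 9 libraries it lay between 2.69 and 18.3 CPM. All 16 choroid plexus markers were higher in each of the 3 libraries than in any of the 9, and their summed level was 5856 to 10470 CPM against 142 to 204 CPM. The 3 Ttr-rich libraries (Ttr over 100 CPM) come from both genotypes and both sexes, and the members' fold changes are given below with and without them. The first of the 2 factors of unwanted variation (RUV) used in the tests was itself at 0.448 to 0.549 in these 3 libraries and negative in the other 9. None of the 16 markers differed between genotypes at an FDR of 0.1 in edgeR's quasi-likelihood test, and none did so at an unadjusted p of 0.05.

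Cd74 (ENSMUSG00000024610) was high in the Ttr-rich libraries of both genotypes. Its normalized CPM was 3.39, 1.41, 2.37 and 1.14 in APP/PS1 females 1 to 4 and 2.003, 4.27, 0.814 and 0.662 in APP/PS1 males 1 to 4. It was 0.820 and 3.71 CPM in the WT females and 0.553 and 1.08 CPM in the WT males. The highest 3 values were those of the Ttr-rich libraries, 1 of them WT, and the genotypes overlapped. With the 2 RUV factors in edgeR's quasi-likelihood test, the log2 fold change of APP/PS1 against WT, averaged over the sexes, was 0.42 ± 0.34 (SE; Benjamini-Hochberg adjusted p = 0.754). Among the 9 libraries low in Ttr it was 0.68 ± 0.23 (adjusted p = 0.276), with a span of 0.662 to 2.37 CPM in APP/PS1 and of 0.553 to 1.08 CPM in WT. Leaving out 1 library at a time gave 0.043 to 0.76, the lowest without WT female 1 and the highest without WT female 2. The RNA is from whole tissue, so fewer cells of a type and less RNA per cell cannot be told apart.

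H2-Aa (ENSMUSG00000036594, chromosome 17, 34282744 to 34287823 in GRCm38), the alpha chain of the class II A molecule, had a wider gap between the same libraries. WT female 2 had 3.58 normalized CPM, APP/PS1 male 2 had 3.14 and APP/PS1 female 1 had 1.85. APP/PS1 females 2 to 4 had 0.426, 0.553 and 0.697 CPM, and APP/PS1 males 1, 3 and 4 had 0.310, 0.204 and 0.153. WT female 1 had 0.529 CPM and the WT males 0.211 and 0.631 CPM. Outside the Ttr-rich libraries no H2-Aa value was above 0.697 CPM, and the genotypes overlapped there too. The averaged log2 fold change was -0.67 ± 0.34 (edgeR quasi-likelihood adjusted p = 0.564) over 12 libraries and -0.52 ± 0.38 (adjusted p = 0.666) over 9. Over 12 libraries without RUV factors it was -0.051 ± 0.92, and with the border macrophage score as covariate in their place 0.11, so its size and direction turned on the fit. Leaving out 1 library at a time gave -1.16 to -0.10, the lowest without APP/PS1 male 2 and the highest without WT male 2. Without WT male 1 it was -0.99 with an adjusted p of 0.0807, the only 1 of 25 alternative fits in which H2-Aa passed an FDR of 0.1.

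H2-Ab1 (ENSMUSG00000073421, chromosome 17, 34257689 to 34269419), the beta chain that pairs with H2-Aa, was at 2.27 CPM in APP/PS1 male 2, 1.97 in WT female 2 and 1.42 in APP/PS1 female 1. No other library had more than 0.852 CPM or less than 0.211 CPM of it. H2-Eb1 (ENSMUSG00000060586, chromosome 17, 34305867 to 34316674), the beta chain of the E molecule, was at 1.97, 2.17 and 2.58 CPM in those libraries and between 0.382 and 0.737 CPM in the other 9. Both genes were higher in each Ttr-rich library than in any other, and their genotypes overlapped. The averaged log2 fold change was 0.24 ± 0.28 for H2-Ab1 (edgeR quasi-likelihood adjusted p = 0.847) and -0.10 ± 0.24 for H2-Eb1 (adjusted p = 0.939). Over 9 libraries these were 0.37 ± 0.30 and -0.11 ± 0.29, and without RUV factors over 12 they were 0.43 ± 0.53 and 0.12 ± 0.57. H2-Ea (H2-Ea-ps in the annotation), the alpha chain of the E molecule, which mice of this background do not transcribe, had 1 count in 1 library and 0 in the other 11. H2-Eb1 overlaps an antisense gene, Gm20513, and the strand setting of the deposited counting is not stated.

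Promoter windows are printed for H2-Aa and H2-Eb1, which were high in the same libraries, and for H2-DMa, which was not. RefSeq promoter windows of 300 bases (GRCm38.p6) were examined for 3 of the 6 members, in 4 windows. No window of Cd74, H2-Ab1 or Ciita was examined, although Cd74 and H2-Ab1 were high in the same libraries too. The window of H2-Aa is the minus strand of chr17:34287774-34288073, that of H2-Eb1 the plus strand of chr17:34305617-34305916 and that of H2-DMa the plus strand of chr17:34122582-34122881. Capitals mark the Y box CTGATTGG, the X box core CTNGCAAC, the X2 box TGACGTCA and the CCAAT box, searched on both strands. The Y box holds CCAAT on its other strand, so each Y box is also a CCAAT match.
H2-Aa: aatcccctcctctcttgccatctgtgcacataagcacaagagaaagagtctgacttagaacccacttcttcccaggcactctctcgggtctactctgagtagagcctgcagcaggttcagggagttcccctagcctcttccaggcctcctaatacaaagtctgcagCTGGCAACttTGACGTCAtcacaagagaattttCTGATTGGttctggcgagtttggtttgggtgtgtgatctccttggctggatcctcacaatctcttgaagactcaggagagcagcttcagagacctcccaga
H2-Eb1: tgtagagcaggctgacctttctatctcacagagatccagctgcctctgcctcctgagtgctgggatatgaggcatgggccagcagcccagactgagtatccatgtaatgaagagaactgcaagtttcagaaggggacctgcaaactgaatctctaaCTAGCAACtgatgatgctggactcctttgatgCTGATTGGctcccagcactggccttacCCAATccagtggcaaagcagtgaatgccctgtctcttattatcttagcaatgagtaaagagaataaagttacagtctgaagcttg
H2-DMa: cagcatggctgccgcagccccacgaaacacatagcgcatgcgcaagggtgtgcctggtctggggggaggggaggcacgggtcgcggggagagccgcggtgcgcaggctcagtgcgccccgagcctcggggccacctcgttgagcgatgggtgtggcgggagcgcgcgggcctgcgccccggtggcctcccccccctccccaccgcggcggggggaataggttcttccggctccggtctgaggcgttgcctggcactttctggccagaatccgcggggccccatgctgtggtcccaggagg
H2-Aa held the X box core from base 167, the X2 box from base 177 and the Y box from base 200. H2-Eb1 held the X box core from base 157, the Y box from base 189 and a further CCAAT from base 216. The windows of H2-Aa and H2-Eb1 span the start of their gene models. Both H2-DMa windows lie inside its gene model, which begins at 34119541, so the windows are not alike. The letters of H2-DMa therefore cannot be set against those of H2-Aa and H2-Eb1. A link of the letters with the levels was not tested. None of these letters was in the H2-DMa window printed, and its other window held CCAAT on the minus strand. Of 32851 RefSeq promoters, 4.1% held the Y box, 3.42% the X box core, 1.79% the X2 box and 37.4% CCAAT.

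**Figure D1:**
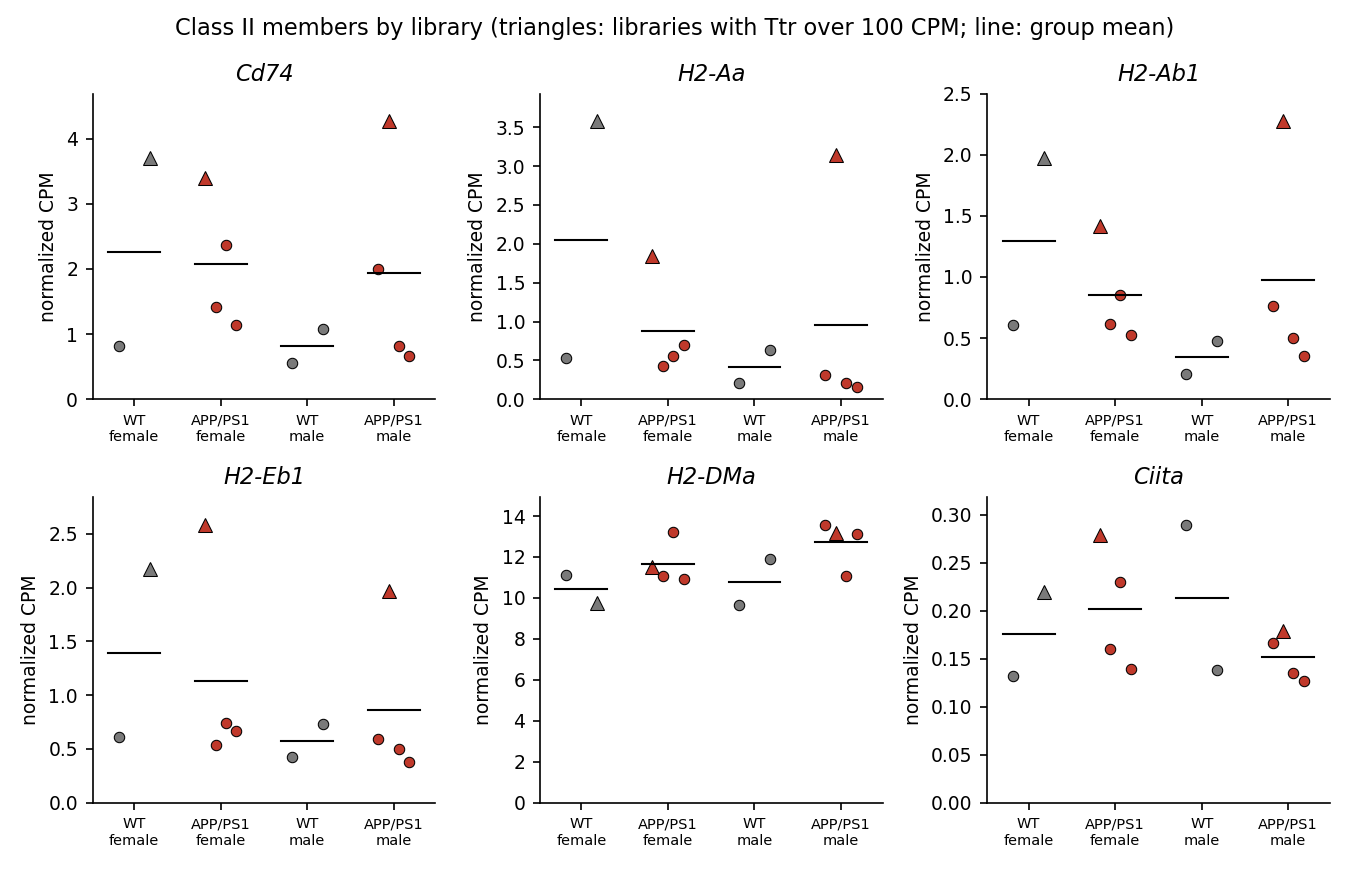
Normalized CPM (y axis) of the 6 genes in each of 12 libraries by group. Triangles are the 3 libraries with Ttr over 100 CPM, circles the other 9, and lines are group means; for Cd74, H2-Aa, H2-Ab1 and H2-Eb1 each triangle lies above all circles.

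H2-DMa (ENSMUSG00000037649, chromosome 17, 34119541 to 34139101), a chain of the peptide exchange factor H2-DM, did not follow Ttr. It was at 11.5, 11.05, 13.2 and 10.9 CPM in APP/PS1 females 1 to 4 and at 13.6, 13.2, 11.1 and 13.1 CPM in APP/PS1 males 1 to 4. The WT females had 11.1 and 9.74 CPM and the WT males 9.64 and 11.9 CPM. The genotypes overlapped, with an averaged log2 fold change of 0.22 ± 0.093 (edgeR quasi-likelihood adjusted p = 0.464) over 12 libraries and of 0.16 over 9. The gene model overlaps Brd2 and 3 other annotated genes, so its level is uncertain.

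Ciita (ENSMUSG00000022504, chromosome 16, 10480059 to 10528418) had between 5 and 11 counts per library, or 0.127 to 0.290 CPM. Its log2 fold change was -0.15 ± 0.40 (edgeR quasi-likelihood adjusted p = 0.947) over 12 libraries and -0.062 ± 0.59 over 9, standard errors larger than the values themselves. Ciita overlaps an antisense gene, Dexi, so with the strand setting unknown its few counts are uncertain. Ciita was not set apart in the Ttr-rich libraries.

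Together, 4 of the 6 members were higher in each of the 3 Ttr-rich libraries than in each of the other 9, as 5.53% of 14059 genes were. Summed over Cd74, H2-Aa, H2-Ab1 and H2-Eb1, the level was 18.8 TPM in WT female 2, 18.4 TPM in APP/PS1 male 2 and 16.5 TPM in APP/PS1 female 1, and between 2.46 and 8.12 TPM elsewhere. H2-Aa relative to Cd74 in TPM was 0.426, 0.326 and 0.241 in those libraries and 0.0684 to 0.285 in the other 9. The part of choroid plexus tissue in these levels was not tested.

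**Figure D2:**
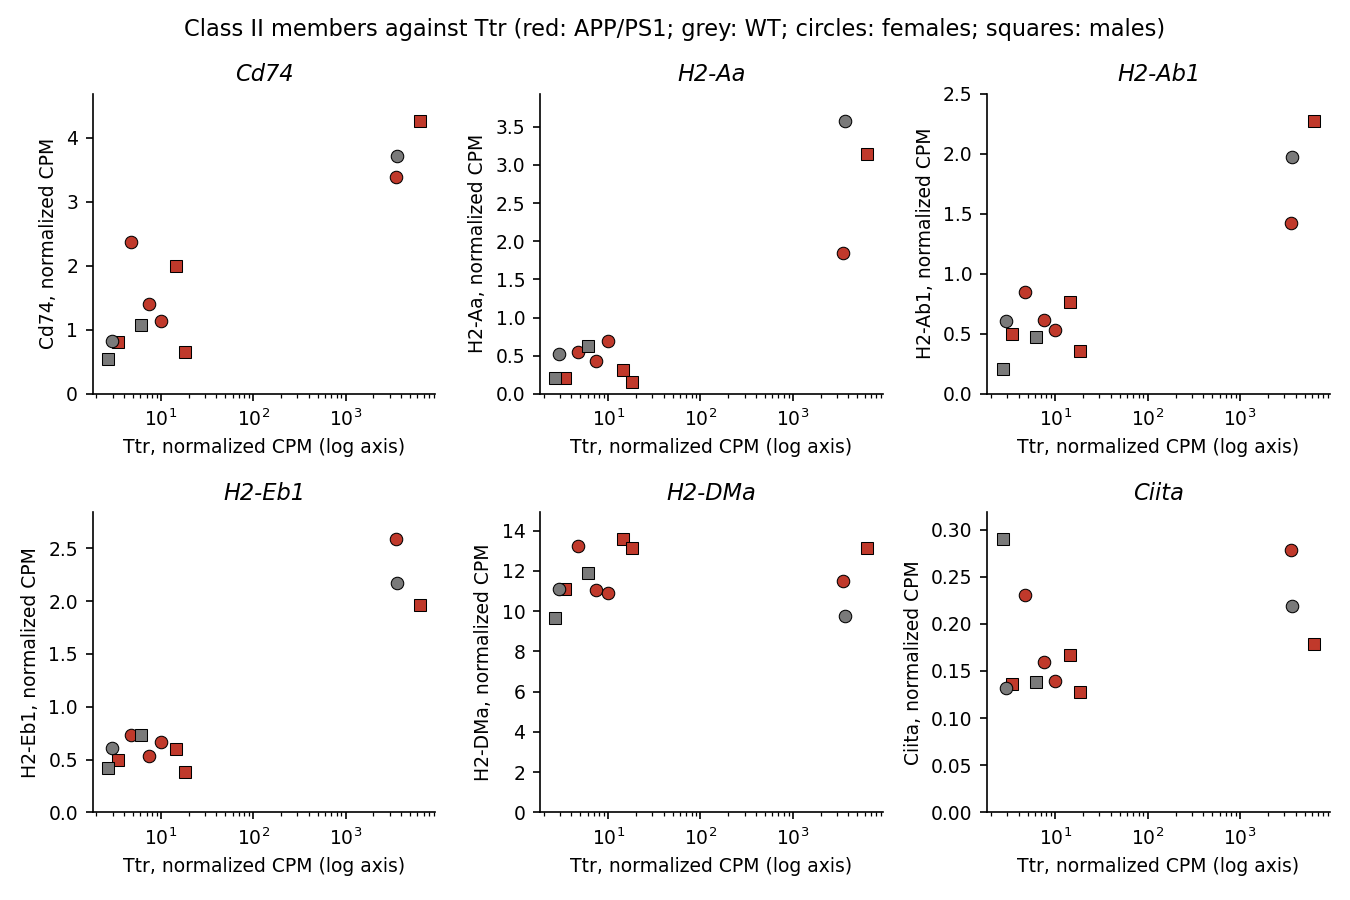
Normalized CPM of the 6 genes (y axis) against that of Ttr (x axis, log scale) in 12 libraries, by genotype (color) and sex (shape). The 3 libraries with Ttr from 3530 to 6362 CPM are the highest for Cd74, H2-Aa, H2-Ab1 and H2-Eb1.

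Markers of border macrophages, the macrophages of the meninges, perivascular spaces and choroid plexus, did not set all 3 of these libraries apart as a list. Their sum, of which Stab1 alone made up 10.9 to 19.0 CPM, was 32.3 CPM in WT female 2, 31.1 in APP/PS1 female 1 and 24.4 in APP/PS1 male 2, and between 19.3 and 32.4 CPM in the other 9. Of 11 markers, 1 was higher in each of the 3 than in each of the 9: Folr2, a folate receptor, at 0.511 to 0.878 against 0.0527 to 0.438 CPM. The scavenger receptors Mrc1 (3.93 to 4.71 against 2.75 to 4.63 CPM) and Cd163 (1.28 to 3.31 against 1.09 to 3.07 CPM) overlapped; these 3 genes and Cd209f were chosen after their values were seen. The mean of log2(CPM + 1) over the markers was highest in WT female 2 (1.42) and APP/PS1 female 1 (1.38), while APP/PS1 male 2 (1.26) lay within the 1.02 to 1.29 of the other 9. Cd209f, a lectin, was at 0.658 to 0.741 CPM in the 3 and at 0.238 to 0.668 in the 9. Stab1 was the most abundant of the list at 5.61 TPM, and no marker was at 0 in most libraries. Their part in the class II levels was not tested.

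Other cells that carry class II gave no clearer division. The 10 dendritic cell markers summed to 17.4 to 23.0 CPM in the 3 Ttr-rich libraries and to 16.3 to 20.9 CPM in the 9. Flt3 (7.18 to 9.90 CPM) and Zbtb46 (6.99 to 10.03 CPM) made up most of that sum, which says little of the other markers. Flt3 was most abundant at 4.93 TPM, and Xcr1 and Ccr7 were at 0 in most libraries. The 7 B cell markers summed to 8.01 to 16.1 against 4.79 to 18.6 CPM, with Ighm most abundant at 21.8 TPM. None of either list was higher in each of the 3 libraries than in each of the 9. The same held for 11 T and NK cell markers (Trac most abundant at 2.04 TPM, Cd3d and Nkg7 at 0 in most libraries) and 7 of monocytes and neutrophils (Vcan at 5.83 TPM, Chil3 at 0 in most).

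Per length, the order of the 6 genes by mean TPM over the 12 libraries was H2-DMa (12.4 ± 1.41, SD), Cd74 (4.01 ± 2.79), H2-Eb1 (1.86 ± 1.47), H2-Ab1 (1.25 ± 0.920), H2-Aa (0.983 ± 1.13) and Ciita (0.0700 ± 0.0222). The ranges of Cd74 (1.18 to 8.86 TPM), H2-Eb1 (0.765 to 4.98 TPM), H2-Ab1 (0.295 to 3.09 TPM) and H2-Aa (0.157 to 3.52 TPM) overlapped each other. H2-DMa (10.04 to 14.8 TPM) lay above and Ciita (0.0504 to 0.110 TPM) below all of them.

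None of the 6 members passed an FDR of 0.1 for genotype. In edgeR's quasi-likelihood test the count was 0 with both sexes averaged, where 1.90% of 14008 genes passed, 0 in females (0.771% of genes), 0 in males (0.171%) and 0 for the interaction of genotype and sex (0% of genes). With the listed genes kept in the test whatever their level, 0 of 6 passed in the averaged contrast, against 1.90% of 14059 genes, and 0 passed by edgeR's likelihood ratio test or by DESeq2, each of which called 2.85% of all genes. With the CPM filter 0 of the 5 members that passed it were called. At an unadjusted p under 0.05 the quasi-likelihood test gave 1 of 6 in the averaged contrast, H2-DMa, where 9.57% of all genes did so, 0 of 6 in females (9.75% of all genes), 0 in males (5.70%) and 0 for the interaction (4.03%). The members' median log2 fold change was 0.057 and that of all 14059 genes 0.0097. In two-sided exact permutation tests with genotype permuted within sex (225 assignments, smallest p 0.00444), the p was 0.436 for Cd74, 0.711 for H2-Aa, 0.604 for H2-Ab1, 0.969 for H2-Eb1, 0.04 for H2-DMa and 0.689 for Ciita.

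By sex, H2-Ab1 had the members' widest contrast over 12 libraries. Its log2 fold change was -0.29 ± 0.37 in females and 0.76 ± 0.43 in males. The difference between the sexes was -1.05 ± 0.57 (edgeR quasi-likelihood adjusted p = 0.995). Over the 9 libraries low in Ttr, given below, the contrast of Ciita was wider than that of H2-Ab1. Cd74 was at 0.30 ± 0.46 in females and 0.55 ± 0.49 in males, H2-Aa at -0.73 ± 0.43 and -0.61 ± 0.52, H2-Eb1 at -0.019 ± 0.33 and -0.18 ± 0.36, H2-DMa at 0.19 ± 0.13 and 0.25 ± 0.13, and Ciita at 0.27 ± 0.58 and -0.57 ± 0.57. None was called, and the values turned on the fit. Over 25 alternatives Cd74 ran from -0.49 to 1.004 in females and from 0.094 to 1.54 in males, and H2-Aa from -1.68 to 0.068 and from -1.32 to 1.51. H2-Ab1 ran from -0.87 to 0.13 in females and from 0.27 to 1.79 in males, and H2-Eb1 from -0.66 to 0.26 and from -0.56 to 0.92. Ciita ran from 0.022 to 0.46 in females and from -1.05 to 0.027 in males, and H2-DMa was positive in all 25 in both sexes. Over the 9 libraries low in Ttr, H2-Ab1 was at 0.020 ± 0.45 in females and 0.73 ± 0.38 in males, Cd74 at 0.82 ± 0.36 and 0.55 ± 0.28, and H2-Aa at -0.16 ± 0.56 and -0.89 ± 0.49. H2-Eb1 was then at -0.030 ± 0.45 and -0.18 ± 0.35, H2-DMa at 0.088 ± 0.15 and 0.24 ± 0.12, and Ciita at 0.37 ± 0.95 and -0.49 ± 0.65. Each sex holds 2 WT libraries, and in females 1 of them is Ttr-rich.

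The rest of the class II pathway held genes that rose. Of 37 genes in 5 pathway lists, 28 passed the filter. Of these, 10 passed an FDR of 0.1 in edgeR's quasi-likelihood test, averaged over the sexes, as 1.90% of 14008 genes did. H2-Ob and H2-DMb1 passed the filter only through APP/PS1 libraries, since no WT library had more than 0.926 and 1.23 CPM of them. For both, the filter itself depended on genotype. With the listed genes kept, 10 of 37 rose in APP/PS1 (1.75% of all genes did) and 1 fell, and edgeR's likelihood ratio test and DESeq2 each called 12 (2.85% of all genes by either). The median log2 fold change of the 37 genes was 0.12. In 8 of the 37 every APP/PS1 library lay above every WT library, as it did for 1.32% of all genes and for 0 of the 6 members. The count of 10 was 6 without the 3 Ttr-rich libraries, 0 without both them and the RUV factors, and 5 without the RUV factors alone. Leaving out 1 library gave 3 (APP/PS1 female 1), 5 (APP/PS1 male 1), 4 (APP/PS1 male 2), or 2 (WT female 1, and likewise WT female 2). Calls over all genes moved too, from 266 of 14008 to 192, 213, 178, 94 and 162 in these 5 fits. They were 173 without RUV factors and 66 without both the factors and the Ttr-rich libraries. Without the Ttr-rich libraries alone they rose to 273, while the pathway count fell to 6. Whether the lower counts are particular to the pathway was not tested. In the fit without both, log2 fold changes were 1.22 for H2-Ob, 1.83 for H2-Oa, 0.98 for H2-DMb1, 1.16 for Irf8 and 0.60 for Gbp2. Without APP/PS1 female 1 or APP/PS1 male 1, H2-Ob and H2-DMb1 no longer met the filter. With listed genes kept, neither missed the threshold in those fits. The count of 11 with listed genes kept was then 6 (APP/PS1 female 1), 5 (APP/PS1 male 2), 2 (either WT female) or 7 (WT male 2). In females alone 3 pathway genes passed, H2-Ob (1.60 ± 0.35), Ctsl (0.43 ± 0.079) and Irf8 (1.44 ± 0.28), where 108 of all 14059 genes did. In males 0 passed, where only 24 of all 14059 genes did. The interaction gave 0 calls, among all 14008 genes too.

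Among paralogs and exchange factors, 3 of 6 genes rose and none fell. H2-Ob, a chain of the H2-O heterodimer that restrains H2-DM, was at 1.22 to 2.46 CPM in the 8 APP/PS1 libraries and 0.483 to 0.926 CPM in the 4 WT (log2 fold change 1.48 ± 0.25, edgeR quasi-likelihood adjusted p = 0.0125). H2-Oa, its partner chain, which was below the filter, was at 0.433 to 1.82 against 0.132 to 0.317 CPM (1.97 ± 0.42, adjusted p = 0.0418). It had 6 to 79 counts per library and overlaps an antisense gene, BC051537, so its level is uncertain too. H2-DMb1, the partner of H2-DMa and the most abundant of the list at 3.49 TPM, was at 1.24 to 3.06 against 0.767 to 1.23 CPM (0.96 ± 0.18, adjusted p = 0.0199). H2-DMb1 has a near-identical neighbor, H2-DMb2, so its counts are uncertain. Without the Ttr-rich libraries the log2 fold change was 1.20 for H2-Ob, 1.69 for H2-Oa and 0.95 for H2-DMb1, which then missed the threshold (adjusted p = 0.108). H2-Oa missed it without WT female 1, WT female 2 or WT male 2 (adjusted p 0.112 to 0.160), and H2-DMb1 without APP/PS1 male 2, WT female 1 or WT female 2 (0.105 to 0.204) and over 12 libraries without RUV factors (1.04, adjusted p = 0.153). Of 25 alternatives H2-Ob was called in 24, H2-Oa in 21 and H2-DMb1 in 19.

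Of the 6 antigen processing genes, 3 lysosomal proteases rose. Ctss, the cathepsin that trims the invariant chain and the most abundant of the list at 356 TPM, was at 111 to 215 CPM in APP/PS1 and 65.5 to 104 CPM in WT (log2 fold change 1.06 ± 0.20, edgeR quasi-likelihood adjusted p = 0.0641). Ctsl rose by less (0.34 ± 0.055, adjusted p = 0.00908) and Ctsb least (0.20 ± 0.052, adjusted p = 0.0987), and their genotypes overlapped. Ctss missed the threshold without APP/PS1 female 1, WT female 1, WT female 2 or WT male 1 (adjusted p 0.128 to 0.270), and Ctsl without APP/PS1 male 2 or WT female 1 (0.300 to 0.322). Ctsb missed it in 8 of 12 fits that left out 1 library (0.123 to 0.355) and without the Ttr-rich libraries (0.110), where Ctss (log2 fold change 0.98) and Ctsl (0.37) still passed and Lgmn, another protease, newly did (0.26, adjusted p = 0.0345, against 0.202 over 12). Over 12 libraries without RUV factors Ctsl (0.38, adjusted p = 0.398) and Ctsb (0.19, adjusted p = 0.396) missed it at about the same fold change. Of 25 alternatives Ctss was called in 18, Ctsl in 21 and Ctsb in 7.

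Of 10 transcription factors of class II genes, 2 rose and 8 were not called, among them Rfxap, the most abundant at 51.6 TPM. Irf8, a factor of myeloid cells, was at 7.04 to 13.6 CPM in APP/PS1 and 3.69 to 5.64 CPM in WT (1.21 ± 0.19, edgeR quasi-likelihood adjusted p = 0.0131), and Spi1, which encodes PU.1, was at 3.64 to 6.63 against 2.67 to 3.43 CPM (0.80 ± 0.18, adjusted p = 0.0549). Irf8 missed the threshold without WT female 1 or WT female 2 (0.107 to 0.113), and Spi1 in 6 of 12 fits that left out 1 library (0.110 to 0.216). Of 25 alternatives Irf8 was called in 22 and Spi1 in 17.

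Of 9 interferon gamma genes, 1 rose: Gbp2, an induced GTPase, at 2.59 to 5.80 CPM in APP/PS1 and 1.83 to 2.40 CPM in WT (0.80 ± 0.18, edgeR quasi-likelihood adjusted p = 0.0580). Ifng itself had counts in 1 library, and Jak1 was the most abundant of the list at 105 TPM. Of 6 costimulation and turnover genes, Cd86, a ligand of CD28, rose (3.19 to 5.78 against 1.95 to 2.60 CPM, 0.81 ± 0.17, adjusted p = 0.0351) and Icosl, a ligand of ICOS, fell by 0.37 (SE 0.091, adjusted p = 0.0846). March8 was the most abundant of these at 27.9 TPM. Without the Ttr-rich libraries Gbp2 (0.61, adjusted p = 0.346), Cd86 (0.73, adjusted p = 0.150) and Icosl (-0.38, adjusted p = 0.217) missed the threshold. With 1 library left out, Gbp2 missed it in 6 of 12 fits (0.117 to 0.267), Icosl in 9 (0.115 to 0.457), and Cd86 without WT female 1 or WT female 2 (0.114 to 0.149). Without RUV factors over 12 libraries Gbp2 (0.80, adjusted p = 0.152) and Icosl (-0.41, adjusted p = 0.124) missed it, and of 25 alternatives Gbp2 was called in 15, Cd86 in 20 and Icosl in 9.

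**Figure D3:**
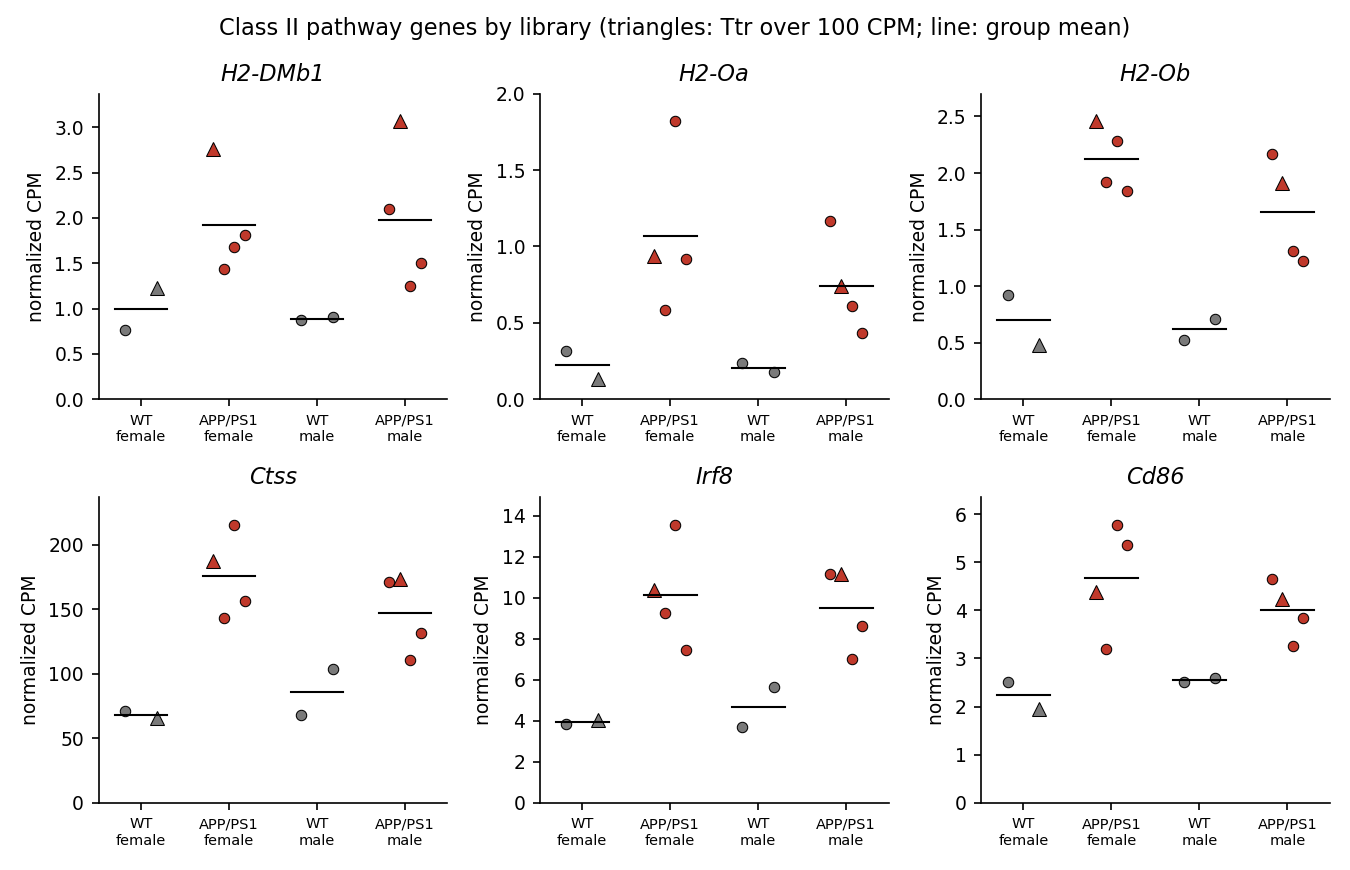
Normalized CPM (y axis) of called class II pathway genes in each of 12 libraries by group. Triangles are the 3 libraries with Ttr over 100 CPM, circles the other 9, and lines are group means; H2-Ob lies at 1.22 CPM or more in APP/PS1 and at 0.926 CPM or less in WT.

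**Figure D4:**
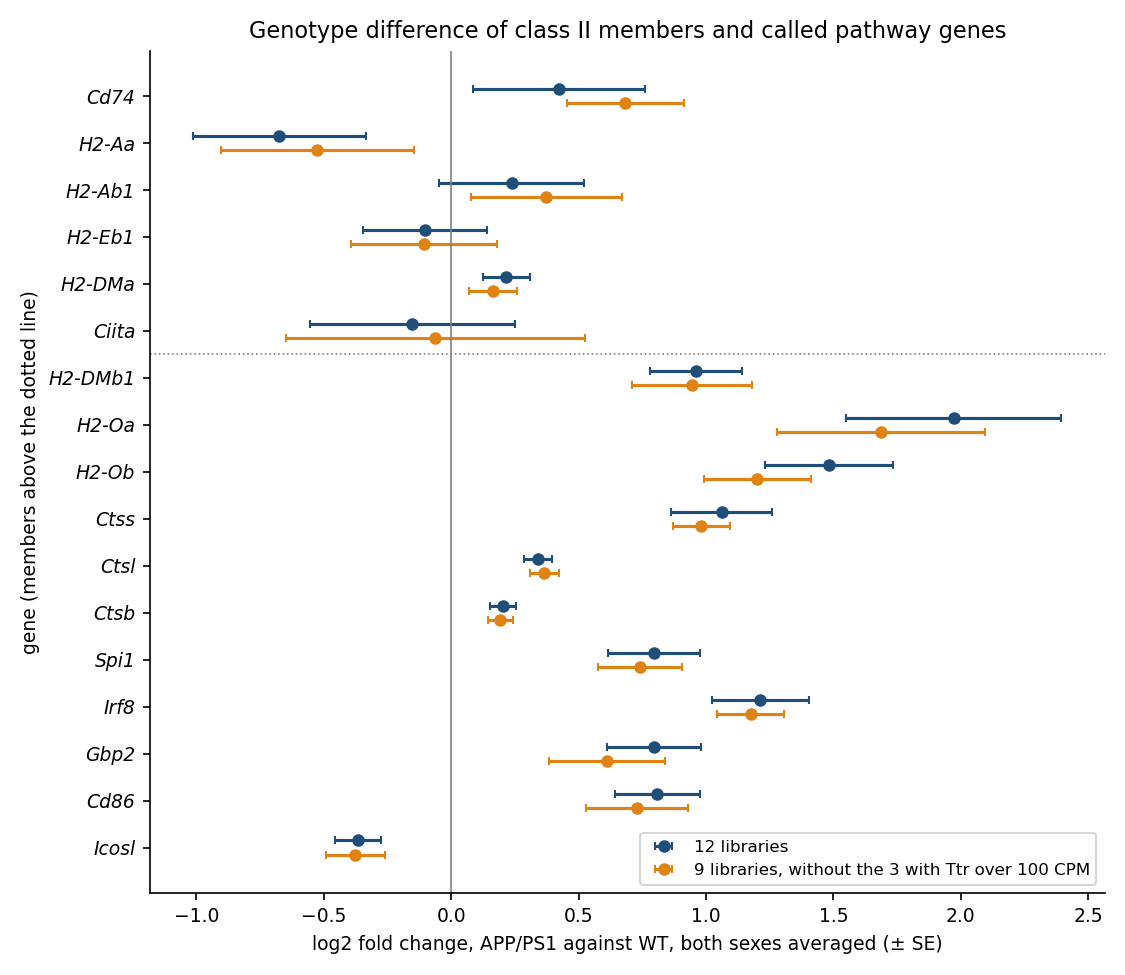
Log2 fold change (x axis) of APP/PS1 against WT, averaged over the sexes, for the 6 members and the 11 called pathway genes, from 12 libraries and from the 9 low in Ttr (color). Bars are standard errors; H2-Oa has the highest value, 1.97 over 12 libraries and 1.69 over 9.

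Microglial markers rose in the comparison in which these pathway genes did, and their part in it was not tested. Of 13 homeostatic microglia genes 10 rose in edgeR's quasi-likelihood test and none fell, with log2 fold changes from 0.33 (Sall1) to 1.06 (Gpr34). Over all 14059 genes, 1.75% rose at an FDR of 0.1. P2ry12, a purinergic receptor, was at 0.59 ± 0.13 (adjusted p = 0.0825) and Csf1r, the receptor for colony-stimulating factor, at 0.59 ± 0.12 (adjusted p = 0.0638). Of 18 plaque-associated genes 13 rose, among them Ctsd, the most abundant at 323 TPM (0.97 ± 0.15, adjusted p = 0.0234), and Cst7 (7.05 ± 0.36, adjusted p = 5.78e-06), and none fell. The others were Itgax, Clec7a, Trem2, Tyrobp, Axl, Ccl6, Cd9, Cd63, Ctsz, Lyz2 and Cd68, from 0.35 (Axl) to 5.68 (Clec7a). The summed level was 544 to 821 CPM in APP/PS1 and 365 to 426 CPM in WT for the homeostatic list, and 588 to 944 against 398 to 473 CPM for the plaque-associated list. No border macrophage, dendritic cell, T and NK cell, or monocyte and neutrophil marker passed in edgeR's quasi-likelihood test. At an unadjusted p under 0.05 there were 3 of 11, 0 of 10, 1 of 11 and 0 of 7 genes of these lists. Over all 14059 genes 9.57% were. Of 7 B cell markers Ighm rose (0.92 ± 0.19, adjusted p = 0.0599). Without the Ttr-rich libraries 4 of 13 homeostatic, 11 of 18 plaque-associated and 0 of 7 B cell markers were called, in a fit that called 273 of the 13726 genes passing its filter.

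The genes most like Cd74 in log2 normalized CPM over the 12 libraries, by Pearson's r, were Tor4a (0.961), Tcn2 (0.956), Fxyd1 (0.955), Hadha (0.950), Fuca1 (0.946), Slc16a6 (0.944), A2m (0.943), Tor3a (0.942), Edn3 (0.934) and Plcd1 (0.933). Each was higher in every Ttr-rich library than in the other 9, so the 3 libraries weigh on these values. Over the 9 others the closest was Gipc1 (0.967), followed by Cyba (0.955), and Fuca1 (0.941) and Fxyd1 (0.925) were again among the 10 closest. The 5 genes most like the mean z-score of the members over 12 libraries were Fuca1 (0.969), Tcn2 (0.968), Slc16a9 (0.967), Fxyd1 (0.966) and Tuba1c (0.963). Among the members, H2-Ab1 had the highest r with Cd74, 0.955 over 12 libraries and 0.894 over 9, while H2-Aa and Cd74 had 0.867 and 0.426.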

How the data were processed

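Poly-A RNA of 12 hippocampi was sequenced. The authors trimmed the reads (Trimmomatic), mapped them to GRCm38 (STAR) and deposited raw counts per gene (HTSeq). Of 55573 genes, 55480 matched GENCODE. CPM used upper-quartile factors, and TPM used union exon length. Genotype was tested with edgeR 4.0.16 (quasi-likelihood, R 4.3.3, Benjamini-Hochberg) on 14008 genes in 1 model with a term per group and 2 RUV factors, re-implemented, whose control genes leave out the 5000 with the strongest group differences in a preliminary test. Its non-robust dispersions were taken because they matched factors known from earlier results of these data, and robust ones were added as an alternative. DESeq2 1.42.0 was another alternative. The fit with listed genes kept was added after the data were seen. Fold changes and adjusted p of single genes are from it (14059 genes). The scripts were tested on simulated data. Libraries within a group differed by a chi-square per degree of freedom of at least 15.5, over 14 pairs. The members and lists were chosen with earlier results of these data known. Genes named are the members, label checks, H2-Ea, pathway genes called, the most abundant, absent and called genes of each list with some left out, and the 10 genes most like Cd74 and 5 most like the members.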

Additional observations from a re-analysis of the deposited data

Results flagged for a closer look

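In groups of 4 libraries, a value was noted when its gap to the nearest other value took up most of the group's range, by Dixon's criterion. Of 34 combinations of gene and group 3 were noted, and chance gives about 1 in 20. H2-Aa was at 3.14 CPM in APP/PS1 male 2, and the next male of that genotype was at 0.310 CPM. H2-Eb1 was at 1.97 CPM in the same library, with the next at 0.596 CPM. H2-Eb1 was also at 2.58 CPM in APP/PS1 female 1, where the next female had 0.737 CPM. Both libraries are rich in Ttr.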

How the results depend on the processing

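The 0 calls among the filtered members held in every alternative. With listed genes kept the count was 0 to 1 with 1 library left out, the 1 being H2-Aa without WT male 1. The causes of the changes below were not tested.

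The count of 10 pathway genes was 5 without RUV factors, 5 at an FDR of 0.05, 6 without the 3 Ttr-rich libraries, 0 without both those and the factors, and 2 to 11 with 1 library left out. With listed genes kept the count of 11 was 6, 6, 8, 0 and 2 to 12. Replicate numbers did not pair samples (4 of 14 same-number pairs had an r over 0.1), and with the replicate number as a block the counts were 5 and 6.

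Members' log2 fold changes, none of them called in the reported fit, changed sign as follows. Without RUV factors Cd74 in females was -0.13, H2-Aa in males 1.12, and H2-Eb1 0.12 averaged and 0.56 in males. With the border macrophage score as covariate Cd74 in females was -0.20, H2-Aa 0.11 averaged and 1.51 in males, and H2-Eb1 0.20 averaged and 0.92 in males. H2-Eb1 in females was 0.043 with 1 RUV factor, 0.17 with the choroid plexus score and 0.023 with robust dispersions in the preliminary test, an alternative chosen after seeing the data. Without the Ttr-rich libraries H2-Ab1 in females was 0.020. Without both them and RUV factors H2-Aa was 0.068, H2-Ab1 0.13 and H2-Eb1 0.085 in females.

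With 1 library left out the values ran from -0.49 to 0.94 for Cd74 in females, -1.32 to 0.45 for H2-Aa in males, -0.057 to 0.61 for H2-Ab1 averaged and -0.87 to 0.041 in females. For H2-Eb1 they ran from -0.45 to 0.15 averaged, -0.66 to 0.26 in females and -0.56 to 0.27 in males, and for Ciita from -0.36 to 0.18 averaged and -1.05 to 0.027 in males. Where this left 1 WT library of a sex, that library was assumed to vary like the other groups.

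Of the members' values under alternatives, 414 kept direction and side of the threshold, 35 changed sign and 1 newly passed; of the called pathway genes' values 193 kept both and 82 missed the threshold. H2-Ab1, H2-Aa, H2-Eb1 and Ciita had as few as 8, 6, 15 and 5 counts in a library, which limits their precision.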

Other observations

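Neutrophil transcripts stood out in 1 library, WT male 2, and were chosen after their values were seen. S100a8 was at 3.45 normalized CPM there and at most 0.286 in the other 11 libraries, and S100a9 was at 3.92 CPM there and at most 0.906 elsewhere. In that library Cd74 was at 1.08 CPM and H2-DMa at 11.9 CPM.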
